A study of Mus musculus with 9 samples.

Results

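The autophagy core machinery genes were taken as every row of the gene count table named Atg followed by a digit, together with 23 further symbols for the ULK and Beclin 1 complexes, the ATG8 proteins, the WIPI proteins, the cargo receptors and the lysosome. The rule found 41 of 19991 genes, and all 41 passed the filter on low counts that left 15834 genes for testing. The study measured testis mRNA of 8-week-old ICR mice, an outbred stock, after injection of an inhibitor of KIFC1, a minus-end-directed kinesin motor. The groups were AZ82 at 1 µM, CW069 at 50 µM and Control, which was injected with PBS, with 3 libraries each. AZ82 and CW069 are small molecules known by these code names, their doses differed, and the time between injection and collection is not given in the sources used here. Each library is whole testis tissue, so fewer cells of a type and less RNA per cell cannot be told apart. The labels do not say that the 3 libraries of a group came from separate animals, so the p-values measure the spread between these libraries, which may be technical.

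Autophagy encloses cytoplasm in a double membrane, the autophagosome, and delivers it to the lysosome. The ULK kinase complex starts the process, the Beclin 1 complex with the lipid kinase PIK3C3 marks the growing membrane with a phosphorylated lipid, and WIPI proteins bind that lipid. ATG9 vesicles and the ATG2 lipid transfer proteins supply the membrane. ATG7, ATG3, ATG10 and the ATG12-ATG5-ATG16L1 conjugate attach ATG8 proteins to it, and the ATG4 proteases process ATG8 before and after that step. Cargo receptors such as SQSTM1 and NBR1 tie ATG8 to what is to be degraded. In mouse testis, Atg7 in germ cells is known to be needed for forming the acrosome, the vesicle of the sperm head.

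The 9 libraries held 13856070 to 18102593 counts over genes, and 18314 to 18553 genes had a count. No gene of the 11 cell type marker lists was at 0 in every library. Control 3 stood apart: the 10 markers of elongating spermatids summed to 6610 CPM (the count scaled to library size by the trimmed mean of M values, TMM) in Control 3, against 12900 to 19300 CPM in the other 8 libraries. Control 3 was the lowest of the 9 libraries for 10 of the 41 autophagy genes, 24.4% of them, against 18.8% of all tested genes. It was the highest for 8 of them, 19.5%, against 16.7% of all tested genes.

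Promoter sequence was read for 35 of the 41 genes from a RefSeq table (GRCm38.p6), as the 250 bases before each annotated start, in 40 windows since some genes have several starts. 3 short motifs were searched: CACGTG, the E-box at the core of the element that TFEB binds in lysosomal and autophagy promoters; TGACGTCA, the cyclic AMP response element; and GGGCGG, the GC box, on both strands, the first 2 being the same on either strand. The E-box was in 4 of the 40 windows (10%), against 7.74% of 15956 windows of tested genes. Those 4 windows belong to Atg3, Atg5, Atg7 and Lamp1. The GC box was in 24 windows (60%), against 51.8%, and the cyclic AMP response element in 1 window, that of Atg16l2 (2.5%), against 2.28%. The windows below are those of Lamp1, the gene with the highest level per length, of Atg3, which holds both E-boxes and GC boxes, and of Atg2a, the gene with the smallest p in 3 of the 4 comparisons. They stand at chr8:13158911-13159160, chr16:45158579-45158828 and chr19:6241418-6241667, each on the plus strand, read 5′ to 3′ with the motifs in capitals.
Lamp1: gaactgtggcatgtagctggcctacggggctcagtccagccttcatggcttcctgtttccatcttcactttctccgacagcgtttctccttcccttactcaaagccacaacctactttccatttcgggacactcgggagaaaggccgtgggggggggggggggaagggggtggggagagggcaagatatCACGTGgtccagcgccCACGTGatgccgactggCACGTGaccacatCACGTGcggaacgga
Atg3: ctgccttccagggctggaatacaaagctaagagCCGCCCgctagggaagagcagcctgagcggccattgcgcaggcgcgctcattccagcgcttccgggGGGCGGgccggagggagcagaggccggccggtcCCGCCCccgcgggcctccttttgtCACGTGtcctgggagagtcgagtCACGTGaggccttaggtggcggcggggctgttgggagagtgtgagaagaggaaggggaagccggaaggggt
Atg2a: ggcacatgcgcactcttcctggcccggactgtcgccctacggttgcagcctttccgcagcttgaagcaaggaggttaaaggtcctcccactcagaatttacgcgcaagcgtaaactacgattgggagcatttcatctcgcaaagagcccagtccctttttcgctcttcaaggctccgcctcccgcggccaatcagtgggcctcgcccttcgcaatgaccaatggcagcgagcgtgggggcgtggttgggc
Lamp1 held 4 E-boxes, whose first bases lay 61, 45, 28 and 15 bases before the start. Atg3 held 2 E-boxes, 94 and 71 bases before the start, and 3 GC boxes further from it. The Atg2a window held none of these letters.

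All 41 genes were transcribed at a measurable level, and their levels per length differed far more between genes than between libraries. Levels between genes are given as CPM per kilobase of exon, as the mean of the 9 libraries. The length is the union of all annotated exons of a gene, and which of these exons the testis transcripts hold was not tested. The median of the 41 genes was 7.85 CPM per kilobase, against 4.44 over the 15372 tested genes with a length, and 29 of the 41 lay above that second median. The highest and the lowest gene lay 1220-fold apart. Of the 41 genes, 2 lay under 1 CPM per kilobase, 23 between 1 and 10, 13 between 10 and 100, and 3 over 100.

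**Figure D1:**
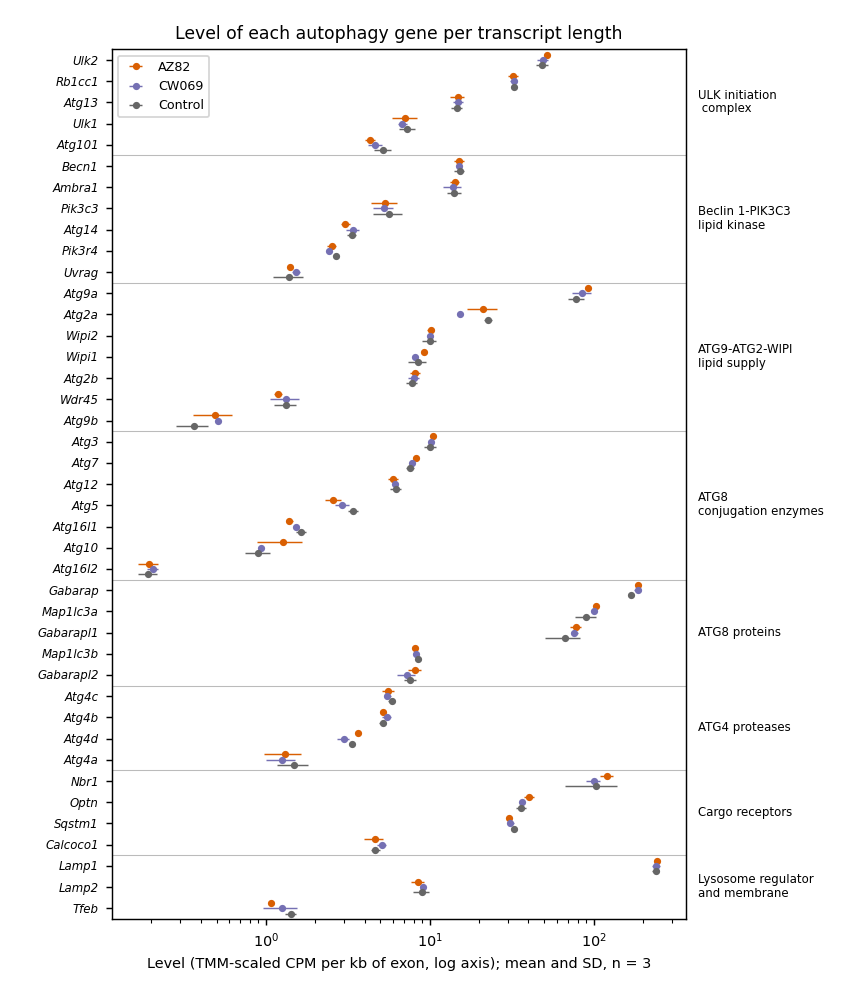
Level of each of the 41 autophagy genes in CPM per kilobase of exon on a log axis, grouped by role, with the mean (point) and SD (line) of the 3 libraries of each group. Lamp1 and Gabarap lie above 100, Nbr1 and Map1lc3a around 100, and Atg16l2 and Atg9b below 1. The 3 points of a gene lie close together beside the distances between genes.

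Lamp1, a glycoprotein of the lysosomal membrane, was the highest at 240 CPM per kilobase, above 99.0% of tested genes. Its level was 684, 632 and 636 CPM in AZ82 1 to 3, 624, 613 and 685 CPM in CW069 1 to 3, and 630, 612 and 672 CPM in Control 1 to 3. The 3 groups overlapped throughout. Per length, Lamp1 stood 24.5 to 33.4 times above Lamp2, its partner in the lysosomal membrane, in the 9 libraries. That ratio depends on the exon unions, 2675 bases for Lamp1 and 9552 for Lamp2. In CPM Lamp1 averaged 643 and Lamp2 84.3 over the 9 libraries. Tfeb, the transcription factor that drives lysosomal genes, was at 1.25 CPM per kilobase.

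Gabarap, an ATG8 protein, came next at 180 CPM per kilobase. Map1lc3a stood at 98.1, Gabarapl1 at 73.4, Map1lc3b at 8.31 and Gabarapl2 at 7.63 CPM per kilobase. Per length, the ratio of Map1lc3a to Map1lc3b ran from 9.16 to 12.9 over the 9 libraries, and that of Gabarap to Gabarapl2 from 20.9 to 28.1. In CPM Map1lc3a averaged 116 and Map1lc3b 62.4, with exon unions of 1181 and 7517 bases. The RNA of ATG8 proteins was mostly Gabarap, Map1lc3a and Gabarapl1 in every library. These genes are alike in sequence, and how the authors' counting split reads between near copies is not given in the sources used here. Map1lc3b had the narrowest range of all 41 genes, with a highest library 1.08 times the lowest.

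Among the cargo receptors, Nbr1 was the highest at 107 CPM per kilobase. Optn, a receptor used in the removal of mitochondria and bacteria, stood at 37.6, Sqstm1, also called p62, at 31.3, and Calcoco1, a receptor for endoplasmic reticulum, at 4.78 CPM per kilobase. Nbr1 was above Sqstm1 in every library, 1.83 to 4.32 times per length, with the smallest ratio in Control 3.

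In the membrane supply group, Atg9a, the lipid scramblase of ATG9 vesicles, stood at 85.2 CPM per kilobase and its paralog Atg9b at 0.453. Atg9b had 1.44 to 2.47 CPM in AZ82 libraries, 1.99 to 2.05 CPM in CW069 libraries and 1.09 to 1.73 CPM in Control libraries. Atg2a and Atg2b, the lipid transfer proteins, stood at 19.7 and 7.95 CPM per kilobase. Per length Wipi2 and Wipi1 were nearly level at 10 and 8.57 CPM per kilobase, and Wdr45, also called WIPI4, was at 1.28. In CPM Wipi2 averaged 106 and Wipi1 37.8, with exon unions of 10543 and 4410 bases.

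In the ULK complex the kinase Ulk2 stood at 49.7 CPM per kilobase and the kinase Ulk1 at 7.06, with a ratio of 5.35 to 8.99 over the libraries. The scaffold Rb1cc1, also called FIP200, was at 32.4, and the subunits Atg13 and Atg101 were at 14.8 and 4.72. The Beclin 1 complex lay between 1.44 CPM per kilobase for Uvrag, which marks its endosomal form, and 15.1 for Becn1 itself. Ambra1, a regulator of Beclin 1, was at 14, the kinase Pik3c3 at 5.4, Atg14, which directs the complex to autophagosomes, at 3.26, and Pik3r4, its regulatory subunit, at 2.54.

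The conjugation enzymes ran over a wide range. Per length Atg3, which passes ATG8 to the lipid, led at 10.2 CPM per kilobase, followed by Atg7, the activating enzyme, at 7.85 and Atg12 at 6.13. That order depends on the exon unions, 3154, 6968 and 7711 bases. In CPM Atg7 averaged 54.7, Atg12 47.3 and Atg3 32.3 over the 9 libraries. Per length Atg5 was at 2.97, Atg16l1 at 1.52 and Atg10, the enzyme that joins ATG12 to ATG5, at 1.04. Atg16l2, a paralog of Atg16l1, was the lowest of all at 0.196, with 1.43 to 1.89 CPM in AZ82 libraries, 1.59 to 1.85 CPM in CW069 libraries and 1.38 to 1.8 CPM in Control libraries. The ATG4 proteases ran from Atg4c at 5.64 and Atg4b at 5.26 to Atg4d at 3.32 and Atg4a at 1.35 CPM per kilobase. In CPM Atg4b averaged 43.5 and Atg4c 18.9, with exon unions of 8278 and 3351 bases. Exons of 9 of the 41 genes overlap a gene on the opposite strand that is also in the count table, among them Atg4d with Kri1, Atg9a with Ankzf1 and Lamp1 with Grtp1. Whether the counting used strand is not given in the sources used here, so it is not known whether these counts hold reads of such partners.

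The highest library was under 1.5 times the lowest for 31 of the 41 genes and over 2 times for 3, and the median of that ratio was 1.31, against 1.42 over all tested genes. The widest were Atg9b, Atg10 and Nbr1, with an SD of log2 CPM over the 9 libraries of 0.351, 0.339 and 0.337.

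**Figure D2:**
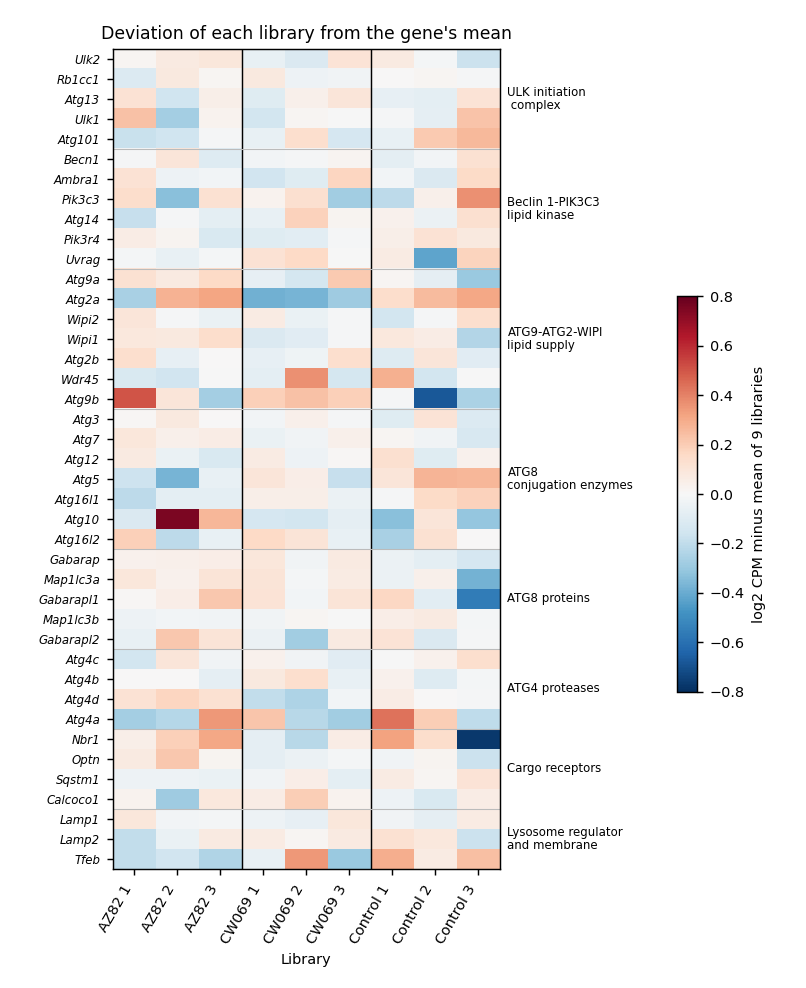
Deviation of each library from the mean of the 9 libraries, in log2 CPM, for the 41 genes in rows by role and the libraries in columns by group. Nbr1 and Gabarapl1 are low in Control 3, Atg10 is high in AZ82 2, and Atg2a is low in AZ82 1 and all 3 CW069 libraries.

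Atg9b and Atg10 are low genes, with Atg10 at 22, 41 and 29 counts in AZ82 1 to 3, 23, 23 and 29 in CW069 1 to 3, and 20, 29 and 21 in Control 1 to 3. Nbr1 is not. It had 745, 825 and 893 CPM in AZ82 1 to 3, 687, 619 and 751 CPM in CW069 1 to 3, and 901, 795 and 422 CPM in Control 1 to 3. Control 3 lay 1.01 below the mean of Control 1 and 2 on the log2 scale for Nbr1 (a log2 ratio of -1.01), and the other 8 libraries all lay above it. The same log2 ratio was -0.60 for Gabarapl1, -0.53 for Atg4a, -0.38 for Map1lc3a, -0.31 for Wipi1, -0.28 for Lamp2 and -0.27 for Atg9a. It was 0.44 for Pik3c3, 0.34 for Uvrag and 0.27 for Ulk1. These were the largest ratios after that of Nbr1, in either direction. The elongating spermatid markers were also lowest in Control 3, as given above, and the 6 peritubular myoid markers summed to 351 CPM there, against 464 to 507 CPM in the other 8 libraries. The part of those cells in these values was not tested.

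Against Control, no autophagy gene passed the test in AZ82 testis, and the smallest p-values were those of Atg5, Atg16l1, Tfeb and Optn. Of the 41 genes, 0 had an edgeR adjusted p under 0.05, where 0% of all 15834 tested genes did; DESeq2 and limma-voom also called 0. The smallest edgeR adjusted p was 0.554, for Atg5. At an unadjusted p under 0.05, 4 genes (9.76%) stood out, against 8.84% of all tested genes: 1 was higher, against 4.04% of all, and 3 were lower, against 4.79%. The median log2 fold change was 0.01, against 0.00 over all genes, with 22 genes above 0 and 19 below, against 49.7% of all genes above and 50.3% below. The median 95% interval reached 0.21 to either side on the log2 scale, a factor of 1.15. Smaller differences were not detectable for a typical gene of the 41. These intervals are not adjusted for the number of genes tested, so larger differences could go uncalled too.

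Atg5, which joins ATG12 in the conjugate, had 6.18, 5.36 and 6.64 CPM in AZ82 1 to 3, against 7.39, 8.34 and 8.31 CPM in Control 1 to 3. Every AZ82 library lay below every Control library, with a log2 fold change of -0.40 ± 0.13 (SE; 95% interval -0.70 to -0.11; edgeR adjusted p = 0.554). The CW069 libraries, at 7.4, 7.19 and 6.08 CPM, reached into the range of both, though CW069 1 lay only just above Control 1. With scaling by library size alone, all CW069 libraries lay below all Control libraries for Atg5. Its partner in the conjugate, Atg16l1, had 12.6, 13.8 and 13.8 CPM in AZ82 1 to 3, against 14.5, 16.2 and 16.6 CPM in Control 1 to 3. Here too the groups did not overlap, at -0.23 ± 0.09 (SE, log2; edgeR adjusted p = 0.554). The groups overlapped for Atg12, Atg3, Atg10 and Atg16l2. Among these other conjugation enzymes Atg12 was at -0.05 ± 0.08, Atg3 at 0.06 ± 0.08 and Atg16l2 at 0.02 ± 0.22 (log2 fold change, SE). Atg7 was at 0.11 ± 0.06 and Atg10, a low gene, at 0.51 ± 0.26 (log2 fold change, SE), with an edgeR adjusted p of 0.587 for Atg10. Without AZ82 2 the value of Atg10 was 0.25. Tfeb had 6.11, 6.28 and 5.92 CPM in AZ82 1 to 3, against 8.56, 7.32 and 8.25 CPM in Control 1 to 3. All AZ82 libraries were below all Control libraries, at -0.40 ± 0.16 (SE, log2; edgeR adjusted p = 0.554). Optn had 148, 163 and 143 CPM in AZ82 1 to 3, against 138, 143 and 125 CPM in Control 1 to 3, at 0.16 ± 0.07 (SE, log2; edgeR adjusted p = 0.564). The AZ82 libraries lay above the Control libraries, though AZ82 3 and Control 2 are equal when rounded.

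Without regard to p, the AZ82 and Control libraries did not overlap for 10 of the 41 genes (24.4%), against 15.3% of all tested genes. The 5 higher ones, against 6.65% of all, were Optn, Atg9a, Gabarap, Atg7 and Atg4d, and the 5 lower ones, against 8.62%, were Atg5, Atg16l1, Tfeb, Sqstm1 and Map1lc3b. With scaling by library size alone, 2 were higher, against 2.65% of all, and 7 lower, against 15.8%; Gabarap stayed above Control, and Atg4d overlapped it. Under TMM scaling the log2 fold changes of the 10 genes ran from -0.40 to 0.23. Atg9a averaged 529 ± 15.4 CPM in AZ82 testis and 452 ± 49.5 CPM in Control testis, and Sqstm1 averaged 102 ± 0.555 CPM in AZ82 testis and 110 ± 3.64 CPM in Control testis (SD, n = 3 each).

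**Figure D3:**
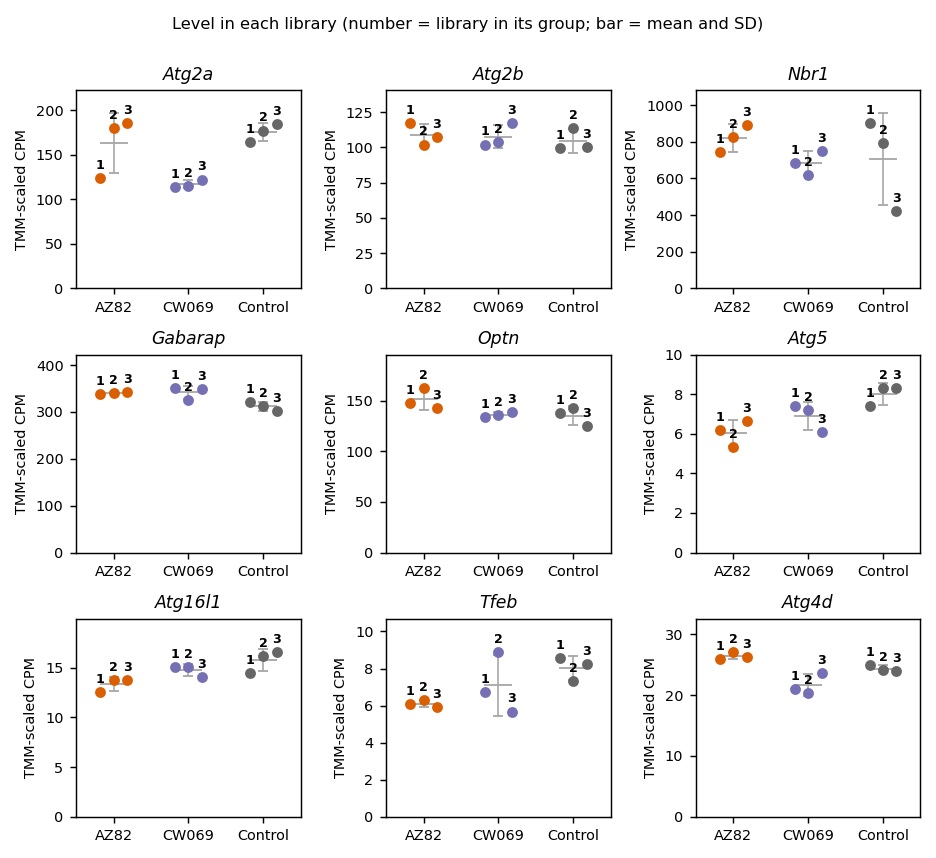
CPM by library for the genes described one by one, with AZ82, CW069 and Control from left to right; points are libraries with their replicate number and grey bars are the group mean and SD. Atg2a shows 114 to 122 CPM in CW069 libraries against 164 to 184 CPM in Control libraries, with AZ82 1 at 124 CPM apart from AZ82 2 and 3.

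In CW069 testis the gene of the 41 furthest from Control was Atg2a, a lipid transfer protein that bridges the endoplasmic reticulum and the growing membrane. Its level was 114, 115 and 122 CPM in the CW069 libraries and 164, 177 and 184 CPM in the Control libraries, in the order of their replicate numbers. All CW069 libraries lay below all Control libraries, with means of 117 ± 4.22 CPM in CW069 testis and 175 ± 10.1 CPM in Control testis (SD, n = 3 each). The log2 fold change was -0.58 ± 0.13 (SE; 95% interval -0.86 to -0.30), the 32nd smallest p of all tested genes, and the edgeR adjusted p was 0.447. DESeq2 gave -0.57 with an adjusted p of 0.0287, 1 of the 28 genes it called over the whole table in this comparison (0.177%), and was the only tool or setting to call it; over all alternatives tried, the adjusted p of Atg2a ran from 0.0287 to 0.817.

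For the group of 41 genes, 0 had an edgeR adjusted p under 0.05 in CW069 against Control, where 0% of all tested genes did. DESeq2 called 1 of the 41 (2.44%), Atg2a, against 0.177% of all genes with an adjusted p, and limma-voom called 0 of the 41 and 0 of all genes. At an unadjusted p under 0.05 there was 1 gene (2.44%), Atg2a, against 7.34% of all tested genes. By direction it was 1 lower gene, against 3.71% of all, and 0 higher, against 3.63%. The median log2 fold change was 0.01, with 21 genes above 0 and 20 below, against 49% and 51% of all genes, and the median 95% interval reached 0.20 to either side. The groups did not overlap for 5 genes (12.2%), against 13.4% of all tested genes: Gabarap and Atg9b were higher, against 6.13% of all, and Atg2a, Atg4d and Pik3r4 lower, against 7.24%.

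For Atg2b, the paralog of Atg2a, the groups overlapped. It had 102, 104 and 117 CPM in the CW069 libraries and 99.3, 114 and 100 CPM in the Control libraries, at 0.04 ± 0.08 (SE, log2; edgeR adjusted p = 0.931). Per length, Atg2a stood 1.96, 1.95 and 1.83 times above Atg2b in CW069 1 to 3, against 2.9, 2.72 and 3.22 times in Control 1 to 3. In AZ82 testis that ratio was 1.85, 3.07 and 3.03 in libraries 1 to 3, so AZ82 1 lay with the CW069 libraries. In CPM, too, Atg2a had 124, 180 and 185 in AZ82 1 to 3, and the log2 fold change of AZ82 against Control was -0.11 ± 0.13 (SE; edgeR adjusted p = 0.803). Without AZ82 1 it was 0.06, with its sign turned round.

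The 4 lowest libraries for Atg2a were thus AZ82 1 and CW069 1 to 3. The same 4 libraries were the lowest for 197 of the 15834 tested genes (1.24%). Of the 20 tested genes nearest to Atg2a in RefSeq gene order, 10 on each side, 1 shared it: Snx15, a sorting nexin of endosomes, 5 places away, which was chosen after its values were seen. Snx15 had 9.82, 18.4 and 19.3 CPM in AZ82 1 to 3, 9.24, 9.92 and 8.06 CPM in CW069 1 to 3, and 17.7, 19.3 and 21.8 CPM in Control 1 to 3. The lowest of the other 5 libraries stood 1.78 times above the highest of these 4. Its log2 fold change was -1.11 ± 0.22 in CW069 against Control (SE; edgeR adjusted p = 0.396) and -0.31 ± 0.21 in AZ82 against Control (SE; edgeR adjusted p = 0.657).

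**Figure D4:**
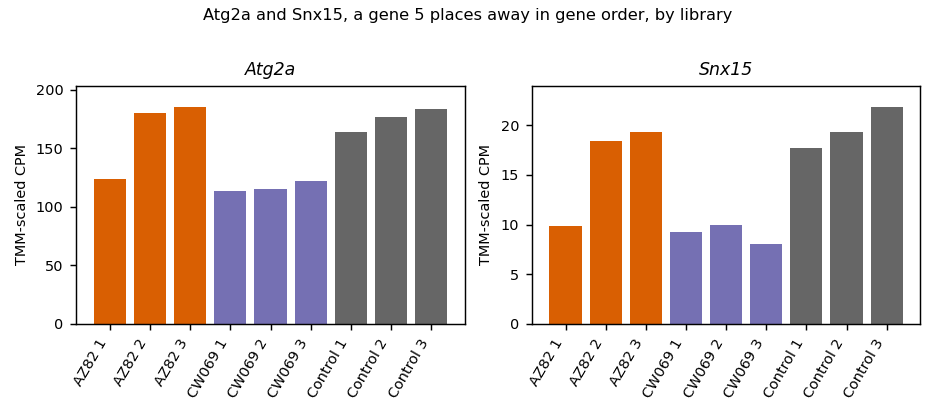
CPM of Atg2a and of Snx15 in each of the 9 libraries, on axes that start at 0. In both panels AZ82 1 and the 3 CW069 libraries are the 4 lowest bars, and AZ82 2 and 3 stand with the Control libraries.

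Set against Control, the mean of both inhibitor groups again gave 0 of 41 autophagy genes with an edgeR adjusted p under 0.05; of all tested genes 0.00632%, a single gene, was called, and it was lower. DESeq2 and limma-voom called 0 of the 41. At an unadjusted p under 0.05 there were 3 (7.32%), Atg2a, Atg5 and Gabarap, against 9.57% of all tested genes. Gabarap was higher, against 4.31% of all, and the other 2 lower, against 5.27%. Of the 41 genes 21 lay above 0 and 20 below, against 49.1% and 50.9% of all genes. Both inhibitor groups share the same Control libraries. Atg2a was at -0.34 ± 0.11 and Atg5 at -0.31 ± 0.11 (log2, SE; edgeR adjusted p = 0.49 for each). Gabarap had 339, 340 and 343 CPM in AZ82 1 to 3, 352, 325 and 348 CPM in CW069 1 to 3, and 321, 313 and 302 CPM in Control 1 to 3. All 6 inhibitor libraries lay above the 3 Control libraries, at 0.13 ± 0.05 (SE, log2; edgeR adjusted p = 0.51). With scaling by library size alone they still did, and the log2 fold change of Gabarap was 0.07. Gabarap was the only one of the 41 genes (2.44%) whose groups did not overlap in this comparison, against 5.11% of all tested genes, or 2.19% for higher genes alone. The 10 round spermatid markers summed to 2350 to 2530 CPM in AZ82 libraries, 2380 to 2520 CPM in CW069 libraries and 2200 to 2320 CPM in Control libraries, and their part in the Gabarap values was not tested.

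CW069 and AZ82 were given at different doses, so a difference between these groups is one of compound and dose together. Of the 41 genes, 0 had an edgeR adjusted p under 0.05, where 0% of all tested genes did, and DESeq2 and limma-voom called 0. At an unadjusted p under 0.05 there were 2 (4.88%), Atg2a and Atg4d, against 4.97% of all tested genes. Both were lower in CW069 testis, against 2.39% of all, and 0 were higher, against 2.58%. Of the 41 genes 18 lay above 0 and 23 below, against 49.6% and 50.4% of all genes. The CW069 libraries all lay below the AZ82 libraries for Atg2a, Atg4d, Optn and Wipi1 and all above them for Atg16l1 and Uvrag, 6 genes (14.6%), against 11.3% of all tested genes. By direction these were 4 lower, against 5.8%, and 2 higher, against 5.52%. Atg2a differed by -0.48 ± 0.13 (SE, log2; 95% interval -0.76 to -0.19; edgeR adjusted p = 0.802), with the closest libraries at 122 CPM in CW069 3 and 124 CPM in AZ82 1. Atg4d, an ATG4 protease, had 21, 20.3 and 23.7 CPM in the CW069 libraries and 26, 27.1 and 26.2 CPM in the AZ82 libraries. The difference was -0.29 ± 0.08 (SE, log2; edgeR adjusted p = 0.802), and the Control libraries, at 25, 24.1 and 23.9 CPM, lay between both groups. For the median gene of the 41 the 95% interval of the difference reached 0.21 to either side, a factor of 1.15.

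**Figure D5:**
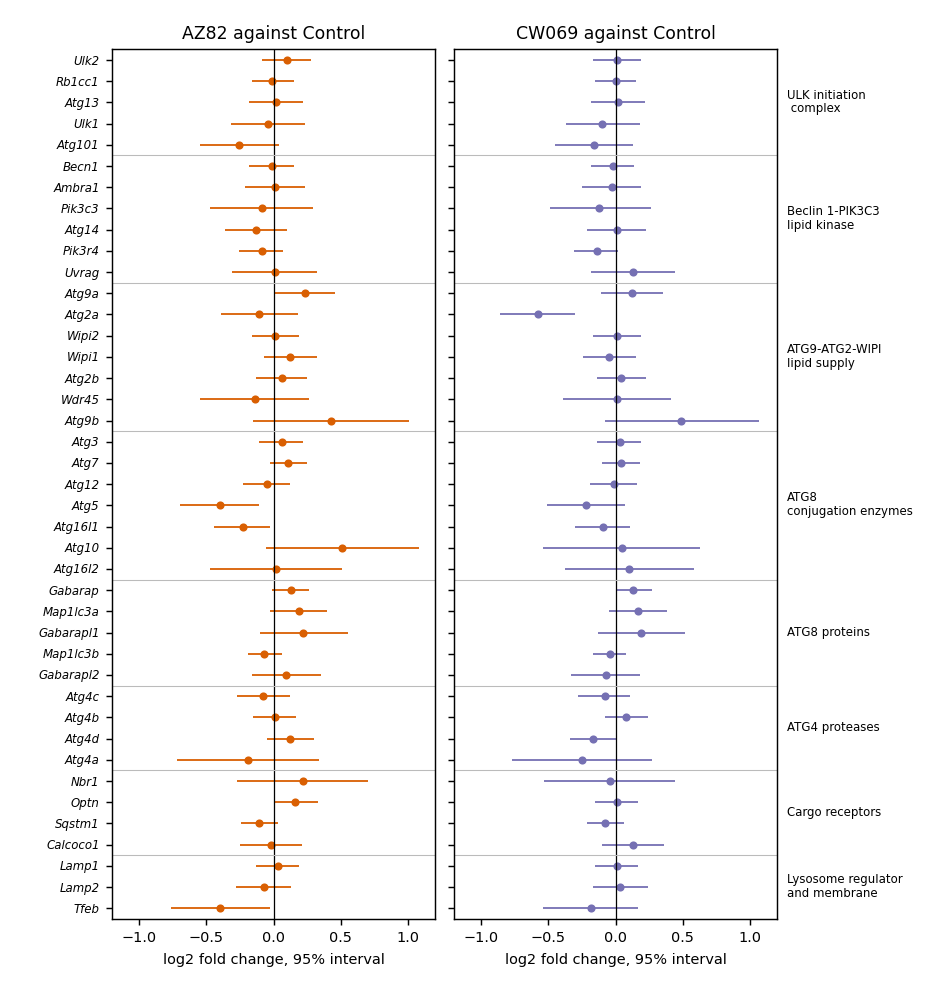
Log2 fold change of each of the 41 genes in AZ82 and in CW069 against the same Control libraries, with 95% intervals from the edgeR fit. Nearly all intervals cross 0, and Atg2a in CW069 testis, at -0.58, lies furthest below it.

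The wider pathway was read from 4 lists with 100 tested genes outside the 41, and 0 of the 100 had an edgeR adjusted p under 0.05 in any of the 4 comparisons. At an unadjusted p under 0.05, 1 of the 100 (1%) was higher and 6 (6%) lower in AZ82 against Control, where 4.04% of all tested genes were higher and 4.79% lower. In CW069 against Control 3 (3%) were higher and 10 (10%) lower, where 3.63% of all tested genes were higher and 3.71% lower. Of the 31 lysosomal enzyme and pump genes, 24 lay below 0 in AZ82 testis, where their median was -0.11 (log2 fold change), and 27 lay below 0 in CW069 testis, where it was -0.08. Over all tested genes both medians were 0.00, and 50.3% lay below 0 in AZ82 testis and 51% in CW069 testis. Without Control 1, 22 lay below 0 in AZ82 testis and 22 in CW069 testis, with medians of -0.03 and -0.05. The 10 macrophage markers summed to 162 to 216 CPM in AZ82 libraries, 168 to 216 CPM in CW069 libraries and 206 to 265 CPM in Control libraries, with Control 1 the highest, and the 10 Leydig markers summed to 1560 to 1900 CPM in AZ82 libraries, 1490 to 1560 CPM in CW069 libraries and 1840 to 1970 CPM in Control libraries. The part of these cells in the lysosomal values was not tested.

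Of the lysosomal genes, Tpp1, a peptidase, averaged 18.9 ± 0.59 CPM in CW069 testis and 25.3 ± 2.64 CPM in Control testis (SD, n = 3 each), at -0.42 ± 0.11 (SE, log2; edgeR adjusted p = 0.524). Ctsd, the protease cathepsin D, was at -0.20 ± 0.07 in CW069 against Control (SE, log2; edgeR adjusted p = 0.585), and Cln3, a lysosomal membrane protein, at -0.30 ± 0.12 in AZ82 against Control (SE, log2; edgeR adjusted p = 0.554). The sialidase Neu1 averaged 4.91 ± 0.74 CPM in CW069 testis and 9.81 ± 2.31 CPM in AZ82 testis (SD, n = 3 each), a difference of -1 ± 0.31 (SE, log2; edgeR adjusted p = 0.958). In Control testis Neu1 averaged 7 ± 3.56 CPM (SD, n = 3), between both groups and with a wide spread. The list also held values above 0, up to 0.63 in AZ82 and 0.88 in CW069 against Control, both of Sgsh, a sulfatase of heparan sulfate breakdown, named here after its values were seen. Sgsh had 12.6, 12.1 and 5.77 CPM in AZ82 1 to 3, 12.1, 13.2 and 10.8 CPM in CW069 1 to 3, and 4.07, 11.1 and 4.32 CPM in Control 1 to 3. Control 2 lay within the range of both inhibitor groups, and in CW069 against Control the log2 fold change of Sgsh was 0.88 ± 0.37 (SE; edgeR adjusted p = 0.667).

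Among 18 genes of autophagosome growth and fusion, 16 lay below 0 in AZ82 testis and 14 in CW069 testis, with medians of -0.06 and -0.05. Of all tested genes 50.3% and 51% did. Without AZ82 1, 12 of the 18 lay below 0 in AZ82 testis, and without Control 3, 12 did in CW069 testis. Vmp1, an endoplasmic reticulum protein of autophagosome formation, was at -0.18 ± 0.08 in AZ82 and -0.17 ± 0.08 in CW069 (log2, SE; edgeR adjusted p = 0.574 and 0.689). Stx17, the syntaxin of fusion with the lysosome, averaged 62.4 ± 2.45 CPM in CW069 testis and 74.7 ± 2.55 CPM in AZ82 testis (SD, n = 3 each), at -0.26 ± 0.07 (SE, log2; edgeR adjusted p = 0.802). Tecpr1, a protein of autophagosome fusion, was at -0.20 ± 0.08 in CW069 against Control (SE, log2; edgeR adjusted p = 0.656).

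Of the 19 selective autophagy genes outside the 41, 12 lay above 0 and 7 below in AZ82 testis, and 8 above and 11 below in CW069 testis. Bnip3, a receptor on mitochondria, averaged 11.5 ± 1.71 CPM in AZ82 testis, 12.3 ± 1.19 CPM in CW069 testis and 16.1 ± 1.68 CPM in Control testis (SD, n = 3 each). It was at -0.49 ± 0.13 in AZ82 and -0.39 ± 0.13 in CW069 (log2, SE; edgeR adjusted p = 0.554 and 0.568).

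Of the 32 nutrient and energy sensing genes, 17 lay below 0 in AZ82 testis and 19 in CW069 testis, with medians of -0.02 and -0.03. Fnip2, a partner of folliculin, was at -0.29 ± 0.11 and Rheb, the small GTPase that activates mTORC1, at -0.24 ± 0.11 in AZ82 against Control (log2, SE; edgeR adjusted p = 0.554 and 0.561). Lamtor5, a subunit of the Ragulator complex, was at -0.23 ± 0.08 and Akt1s1, an inhibitory subunit of mTORC1, at 0.18 ± 0.07 in CW069 against Control (log2, SE; edgeR adjusted p = 0.568 and 0.644).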

How the data were processed

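Gene counts of 9 testis mRNA libraries were used as the authors deposited them, as raw counts per gene. Libraries were made with the TruSeq Stranded mRNA kit from RNA with an integrity number of at least 7, per the labels' protocols. Per the submitters' processing notes, the tools were Trimmomatic, HISAT2 and HTSeq and the build GRCm39; versions and settings are not given in the sources used here. The per-library files and the joint table held equal counts for each of 19991 genes. Genes were filtered by group with edgeR 4.0.16 (R 4.3.3), scaled by TMM and fitted over all 9 libraries with 1 coefficient per group, which leaves 6 residual degrees of freedom. P-values of the quasi-likelihood F test were adjusted by Benjamini-Hochberg over 15834 genes, after a test on simulated data. Standard errors are the log2 fold change over the root of F. Lengths are GENCODE M21 exon unions. DESeq2 1.42.0, limma 3.58.1, other scalings, filters, a replicate block and left-out libraries were alternatives. The genes and lists were chosen with earlier results of these data known; genes given by library were Atg2a, those with an unadjusted p under 0.05, and the 3 highest, 3 lowest and 3 widest. A result for 1 gene of the wider pathway is not reported here.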

Additional observations from a re-analysis of the deposited data

Results flagged for a closer look

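Atg4d lay on opposite sides of Control in the inhibitor groups under TMM scaling. All 3 AZ82 libraries lay above the 3 Control libraries and all 3 CW069 libraries lay below them, and the difference of CW069 from AZ82 was -0.29 on the log2 scale (SE 0.08; edgeR adjusted p = 0.802). The log2 fold change was 0.12 ± 0.08 in AZ82 against Control (SE; edgeR adjusted p = 0.641) and -0.17 ± 0.08 in CW069 against Control (SE; edgeR adjusted p = 0.689). With scaling by library size alone the CW069 libraries still lay below the Control libraries, but the AZ82 libraries, at 25.4, 26.4 and 25.5 CPM, overlapped the Control libraries, at 25, 24.2 and 25.9 CPM, and the log2 fold change of AZ82 against Control was 0.04. Atg4d shares exon sequence with Kri1 on the opposite strand.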

How the results depend on the processing

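Over the alternatives that kept all 9 libraries, edgeR and limma-voom called 0 of the 41 autophagy genes in each comparison, and DESeq2 called 1, Atg2a in CW069 against Control, and 0 in the other 3 comparisons; the cause of that difference was not tested. Over all genes DESeq2 called 6 in AZ82, 28 in CW069, 15 for the mean of both inhibitors and 13 in CW069 against AZ82, and limma-voom called 1, 0, 1 and 0 in that order. With each of the 9 libraries left out in turn, edgeR called 0 of the 41 genes in every comparison. DESeq2 and limma-voom were not run with libraries left out. Scaling by library size alone moved the median of all genes (log2) to -0.081 in AZ82 against Control and -0.051 in CW069 against Control. For the mean of both inhibitors that median was -0.067, and in CW069 against AZ82 it was 0.031. The median of the 41 genes moved alike, to -0.074, -0.045, -0.056 and 0.024 in that order. Under that scaling 4 genes (9.76%) did not overlap for the mean of both inhibitors, 1 higher and 3 lower, against 5.71% of all tested genes, 0.758% higher and 4.95% lower. It moved Gabarap to 0.05 in AZ82, 0.08 in CW069 and 0.07 for the mean of both, and in AZ82 Optn to 0.09, Atg4d to 0.04 and Atg2a to -0.19. It turned the sign of values near 0: Atg16l2 to -0.06 in AZ82 and 0 for the mean of both, Lamp1 to -0.05 in AZ82, -0.04 in CW069, -0.05 for the mean of both and 0.01 in CW069 against AZ82, and Optn to -0.04 in CW069. With limma-voom, Nbr1 in CW069 was at 0.03.

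With libraries left out, the median of the 41 genes ran from -0.036 to 0.033 in AZ82, -0.024 to 0.024 in CW069, -0.016 to 0.01 for the mean of both and -0.017 to 0.015 in CW069 against AZ82. Genes without overlap numbered 9 to 17 (22% to 41.5%) in AZ82, against 15.2% to 28.2% of all tested genes, 5 to 10 (12.2% to 24.4%) in CW069, against 13.3% to 26.5%, 1 to 6 (2.44% to 14.6%) for the mean of both, against 5.96% to 13.4%, and 6 to 17 (14.6% to 41.5%) in CW069 against AZ82, against 11.4% to 26.2%; fewer libraries overlap less often by construction. The highest counts were without Control 2 in AZ82, at 28.2% of all genes, and without CW069 3 in CW069 against AZ82, at 26.2%. Atg2a in CW069 ran from -0.63 to -0.54. Its value in AZ82 ran from -0.21 to 0.06, the highest without AZ82 1. Nbr1 ran from -0.05 to 0.43 in AZ82, -0.31 to 0.17 in CW069 and -0.18 to 0.3 for the mean of both, with the lowest value without Control 3 in each. Values near 0 changed sign too: Atg16l2 ran from -0.1 to 0.11 in AZ82 and -0.04 to 0.14 for the mean of both, Atg10 from -0.03 to 0.2 in CW069, Lamp1 from -0.01 to 0.06 in AZ82, -0.05 to 0.05 in CW069 and -0.01 to 0.05 for the mean of both, and Optn from -0.04 to 0.05 in CW069. In CW069 against AZ82, Atg9b ran from -0.11 to 0.28, Gabarap from -0.01 to 0.04 and Lamp1 from -0.07 to 0.02. The left-out libraries for the lysosomal and other pathway lists were chosen after seeing the data.

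Replicate numbers did not pair libraries: the deviations from group means of same-numbered libraries correlated at -0.19 to 0.05 in 9 pairs, none over 0.1, and those of other libraries at -0.12 to 0.2 in 18 pairs. With the replicate number as a block, 0 of the 41 genes were called in each comparison, and Atg2a in CW069 was at -0.58 (edgeR adjusted p = 0.512). Library pairs of 1 group differed by 3.34 to 29.1 in chi-square per degree of freedom, so none was counted as a repeat. The highest values were those of Control 3 with Control 1, at 29.1, and with Control 2, at 24.6. All other pairs lay at 7.21 or below. With 3 libraries a group, the 95% interval of a typical gene of the 41 reached a factor of 1.15 against Control. That interval is not adjusted for the number of genes tested.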
